A study of Mus musculus with 6 samples.

Results

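The genes of the type I interferon response were examined in mouse acute myeloid leukemia cells that lack PPARA, a nuclear receptor that senses fatty acids. The set was a list of 46 names, which stand for 45 genes because Tmem173 is an older symbol of Sting1. A member counted as measured when a row of the array table was paired with that 1 gene, and where a gene had several rows the row with the highest mean over all arrays was to be used, although no member had more than 1. By that rule 43 of the 45 genes were measured, out of 30740 named genes in the table. Of these, 6 belong to the Oas family (Oas1a, Oas1g, Oas2, Oas3, Oasl1 and Oasl2) and 37 do not. Ifi44 and Phf11d had no row of their own and were not analysed as members.

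There were 3 samples of Ppara -/- leukemia cells and 3 of Ppara +/+ leukemia cells. Both genotypes carried the fusion oncogene MLL-AF9 together with green fluorescent protein (GFP), introduced with the retroviral vector MSCV-MLL-AF9-IRES-GFP. Bone marrow mononuclear cells of secondary transplant recipients were sorted for GFP, and their total RNA was hybridised. The Ppara -/- and Ppara +/+ mouse lines had been backcrossed for 10 generations after purchase, and the age, strain and genotype of the recipients were not given in the sources used here. Nothing in the labels says whether the 3 replicates of a genotype were separate primary leukemias or one leukemia passed to several recipients, so a p-value here reflects only how far these 6 samples spread, which may be technical. The study's title speaks of a differentiation block and of immune suppression. The comparison here asks whether interferon response genes differed in signal between leukemia cells with and without PPARA.

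Type I interferons are secreted when cells sense foreign or misplaced nucleic acid. They bind a receptor of the chains IFNAR1 and IFNAR2, whose kinases activate STAT2. With IRF9, STAT2 is part of a complex that binds the interferon-stimulated response element (ISRE), a short DNA motif in the promoters of interferon-stimulated genes. The products of those genes destroy viral RNA, block translation, trap viral particles and, through USP18, damp the receptor itself. In myeloid cells the same genes are also active at a low tonic level without infection.

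The values are log2 array signals as deposited, and they ran from 1.67 to 14.42 on the 6 arrays. Background was judged against 5222 negative-control probe sets. Their median lay between 4.63 and 5.16 and their 95th percentile between 7.91 and 8.23, and the medians were highest on Ppara +/+ replicate 1 (5.16) and Ppara -/- replicate 2 (4.99). With 3 arrays per genotype, precision is limited by their number. The Ppara row gave 5.19 ± 0.12 in Ppara -/- cells and 5.08 ± 0.18 in Ppara +/+ cells (SD, n = 3 each), which is near the negative-control medians and does not check the genotype labels. Of 13 measured markers of leukemic and myeloid cells 9 had a mean above 8.09, the mean of those 95th percentiles, with Ly6c2, Elane, Mpo and Itgam on top. So did 6 of 11 markers of monocytes and macrophages and 2 of 8 of plasmacytoid dendritic cells, and none of 9 T and NK cell markers, 6 B cell markers and 4 erythroid markers.

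No interferon response gene passed the test over all genes. Of the 43 members 0 had a limma adjusted p under 0.05, where 36 of the 30740 genes did (0.117%, and 0.0586% as higher). At an unadjusted p under 0.05 in the same fit stood 4 members (9.30%), Oas2, Ddx58, Oas3 and Ifi27, all with the higher signal in Ppara -/- cells, against 5.74% of all genes in either direction and 3.14% as higher. In 4 members, Oas2, Ddx58, Oas3 and Rtp4, the 3 Ppara -/- values all lay above the 3 Ppara +/+ values, and no member showed the opposite. Over all genes the groups did not overlap in 8.74%, and in 5.11% with Ppara -/- higher. The shares of members without overlap and at an unadjusted p under 0.05 were 1 to 3 times these backgrounds and rest on 4 genes each.

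How many members reached an unadjusted p under 0.05 differed between fits. With arrays weighted by quality, 1 member, Oas2, had a limma adjusted p under 0.05, against 0.901% of all genes, and 16 members stood at an unadjusted p under 0.05 (37.2%, 15 of them higher), against 13% of all genes and 7.67% as higher. That fit gave a weight of 3.59 to Ppara -/- replicate 1 and of 0.244 to Ppara +/+ replicate 1. Without Ppara -/- replicate 2 and Ppara +/+ replicate 1 the unadjusted count was 9 members, all higher, against 9.59% of all genes and 5.28% as higher. With the negative-control median as a covariate it was 8, all higher, against 8.53% of all genes and 4.32% as higher. Other fits gave fewer members than the 4. The count was 2 without Ppara -/- replicate 1, against 3.74% of all genes, and 2 with arrays centred on their median, against 5.34%. It was 11 without Ppara -/- replicate 3, against 3.75% of all genes, and 8 without Ppara +/+ replicate 1, against 7.19%. Among genes above the 95th percentile of the negative controls it was 0 of the 6 members left, and the other fits gave 4 or 5.

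Differences over the whole set were small. The log2 difference (Ppara -/- minus Ppara +/+) was positive in 29 members and negative in 14, with a median of 0.09, a lowest value of -0.28 in Mx1 and a highest of 0.87 in Oas2. Over all genes the median was 0.02 and 58.1% were positive. In 25 members the absolute difference was under 0.2. The 95% interval of the difference included 0 in 39 members, and in 42 of 43 it lay within -1 and 1. A change of signal of 2-fold or more in either direction was thus outside the interval for every member but Oas2. In 34 members every array lay under the 95th percentile of its own negative controls, and there the interval bounds the array signal and not the RNA.

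**Figure D1:**
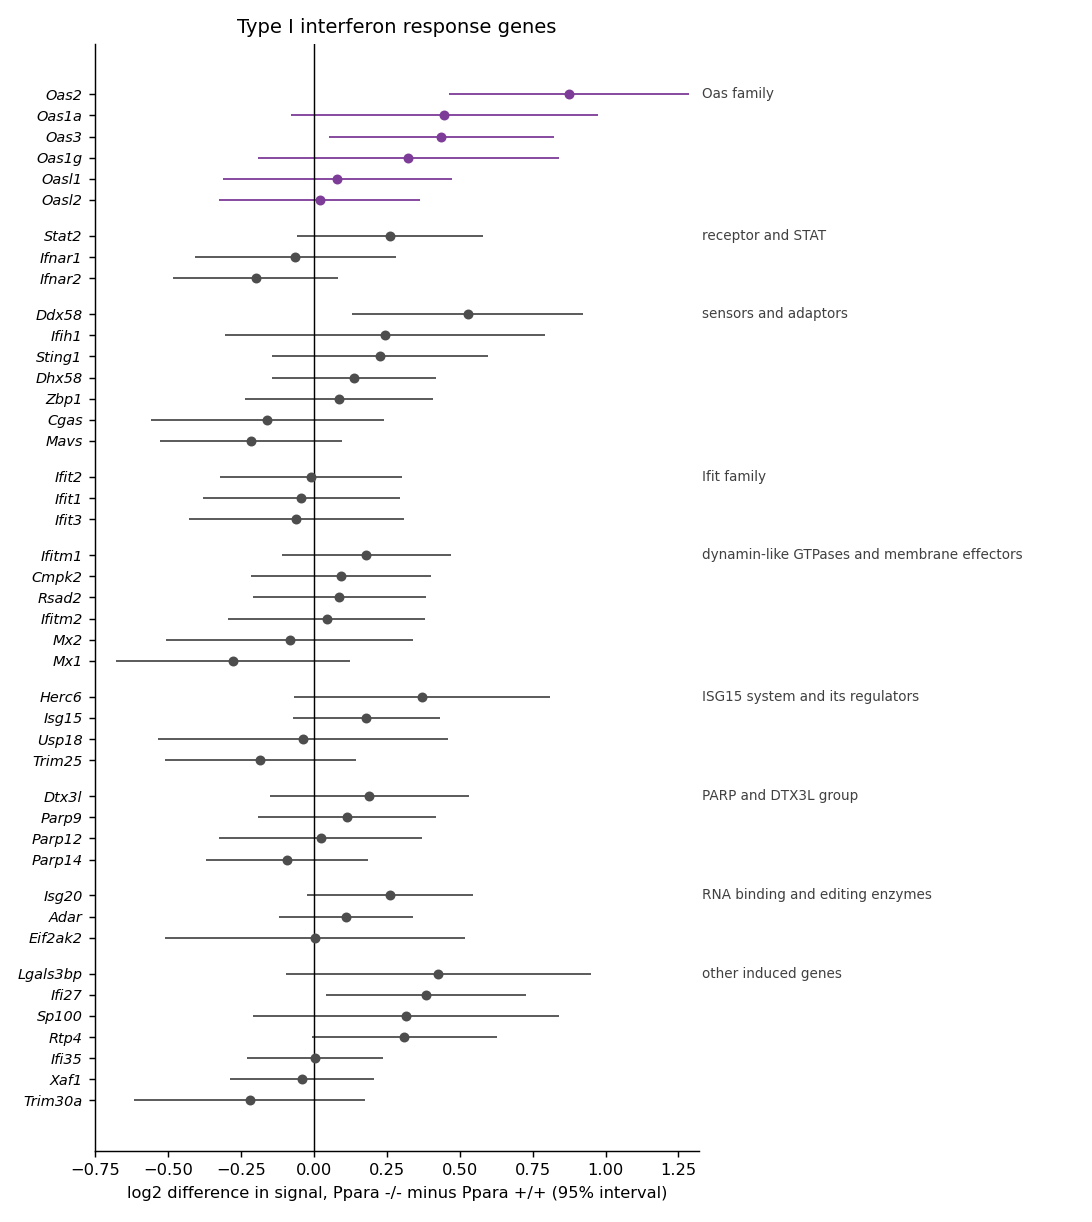
Log2 difference in array signal (Ppara -/- minus Ppara +/+, horizontal axis) of the 43 measured members, grouped by role, with the limma 95% interval as bars and the Oas family in purple. The Oas2 interval runs from 0.46 to 1.28, the intervals of Ddx58, Oas3 and Ifi27 also lie above 0, and those of the other 39 members include 0.

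The Oas family held the member with the largest difference. These genes encode 2'-5' oligoadenylate synthetases, enzymes that are activated by double-stranded RNA and make a messenger that switches on the ribonuclease RNase L. Oas2, a synthetase with a duplicated catalytic unit, had signals of 8.61, 8.31 and 7.97 in Ppara -/- cells, against 7.59, 7.16 and 7.52 in Ppara +/+ cells. The groups did not overlap, and the lowest Ppara -/- array lay 1.30-fold above the highest Ppara +/+ array in signal. The means were 8.30 ± 0.32 and 7.42 ± 0.23 (SD, n = 3 each), a log2 difference of 0.87 (SE 0.18; 95% interval 0.46 to 1.28), or a signal ratio of 1.83. This did not pass over all genes (limma adjusted p = 0.203). A two-sided exact permutation of the 6 arrays gave p = 0.1, below which 3 against 3 cannot go. Over 15 other fits the Oas2 difference stayed between 0.72 and 1.05 with an unadjusted p under 0.05 each time, and the adjusted p ran from 0.0373, with arrays weighted by quality, to 0.684, without Ppara -/- replicate 1.

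Oas3, which favours long double-stranded RNA, had signals of 7.20, 6.66 and 6.79 in Ppara -/- cells, against 6.20, 6.49 and 6.65 in Ppara +/+ cells. The groups were separate by only 0.01, between Ppara -/- replicate 2 and Ppara +/+ replicate 3. Its log2 difference was 0.44 (95% interval 0.05 to 0.82; limma adjusted p = 0.791). Without Ppara -/- replicate 1 it was 0.28, and the unadjusted limma p was then 0.127. The unadjusted p was also above 0.05 without Ppara +/+ replicate 1 (0.0993) and with the replicate block (0.0578).

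Oas1a and Oas1g encode the smaller synthetases with a single catalytic unit. For Oas1a the Ppara -/- arrays gave 7.95, 7.82 and 7.36, against 7.77, 7.03 and 6.99 on the Ppara +/+ arrays, and here Ppara +/+ replicate 1 lay inside the Ppara -/- range. The log2 difference was 0.45 (95% interval -0.08 to 0.97; limma adjusted p = 0.98). Oas1g had 7.08, 6.89 and 6.34 in Ppara -/- cells, against 6.84, 6.14 and 6.36 in Ppara +/+ cells (log2 difference 0.32, 95% interval -0.19 to 0.84). Its groups overlapped, with Ppara +/+ replicates 1 and 3 above Ppara -/- replicate 3. Which probes tell the Oas1 copies apart is not known from the files, and probes of near-identical copies can pick up each other's RNA, so the 2 rows are not independent readings.

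The Oas-like genes differed less. Oasl1, whose mouse product restrains translation of Irf7, had 6.42, 6.0 and 6.16 in Ppara -/- cells, against 5.79, 6.16 and 6.39 in Ppara +/+ cells. Oasl2, which keeps synthetase activity in the mouse, had 5.10, 4.71 and 4.77 in Ppara -/- cells, against 4.6, 4.88 and 5.04 in Ppara +/+ cells. In both genes the groups overlapped throughout, with log2 differences of 0.08 (95% interval -0.31 to 0.47) and 0.02 (95% interval -0.32 to 0.36). The Oasl2 signals were near the negative-control medians in both genotypes.

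**Figure D2:**
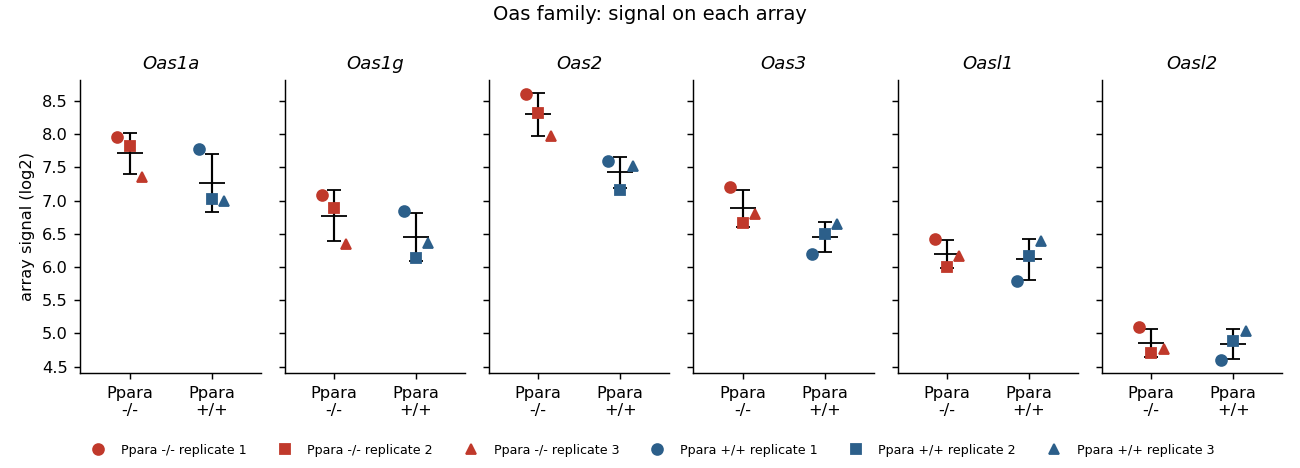
Log2 array signal of the 6 Oas family members on every array, with Ppara -/- (red) left of Ppara +/+ (blue), a symbol for each replicate number and the mean with its SD in black (n = 3). Only in Oas2 and Oas3 do all Ppara -/- points lie above all Ppara +/+ points, by 0.38 and 0.01, and Ppara -/- replicate 1 is the highest Ppara -/- array in all 6 panels.

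Set against the other members, the Oas family had the larger median difference. Its 6 differences were all positive with a median of 0.38, and the 37 other members had 23 positive and 14 negative differences with a median of 0.09. Averaged over the family, the Ppara -/- arrays had 7.06, 6.73 and 6.57, against 6.47, 6.31 and 6.49 on the Ppara +/+ arrays. The mean of the other members was 6.78, 6.66 and 6.58 in Ppara -/- cells and 6.69, 6.47 and 6.63 in Ppara +/+ cells, where the groups overlapped. Relative to each gene's own mean, the Oas family stood above the other members by 0.31, 0.10 and 0.02 on the 3 Ppara -/- arrays, and by -0.19, -0.13 and -0.11 on the 3 Ppara +/+ arrays. No test of this contrast was made, since the set and its split were chosen with earlier results of these data known.

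Within the family the larger differences stood in genes of 1 chromosomal cluster. Oas1a, Oas1g, Oas2 and Oas3 had a median difference of 0.44, and Oasl1 and Oasl2, which stand elsewhere on chromosome 5, one of 0.05. Oasl2 averaged 4.85 over the 6 arrays, in the range of the negative-control medians, so a difference in its RNA could be hidden. In the gene order of mouse assembly GRCm38.p6 the cluster starts with Oas2 and Oas3, goes on with Oas1e, Oas1c, Oas1b, Oas1f and Oas1h and ends with Oas1g, Oas1a and Oas1d. Of the 6 cluster genes that are not members 1, Oas1b, stood at an unadjusted p under 0.05 in limma (16.7%, against 5.74% of all genes). Its signals were 6.41, 6.24 and 6.23 in Ppara -/- cells, against 6.06, 5.98 and 5.77 in Ppara +/+ cells (log2 difference 0.36, 95% interval 0.09 to 0.62; limma adjusted p = 0.602). The groups did not overlap in Oas1b. The other 5 ranged from -0.08 in Oas1h to 0.17 in Oas1c. Of these, Oas1d, Oas1e, Oas1f and Oas1h averaged 4.13, 4.58, 4.68 and 4.26 over the 6 arrays. That is near or under the negative-control medians, so their differences bound array signal and not RNA. Over the 10 genes of the cluster, members included, 8 differences were positive (80%, against 58.1% of all genes). None of the 10 passed over all genes, where 0.117% did.

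**Figure D3:**
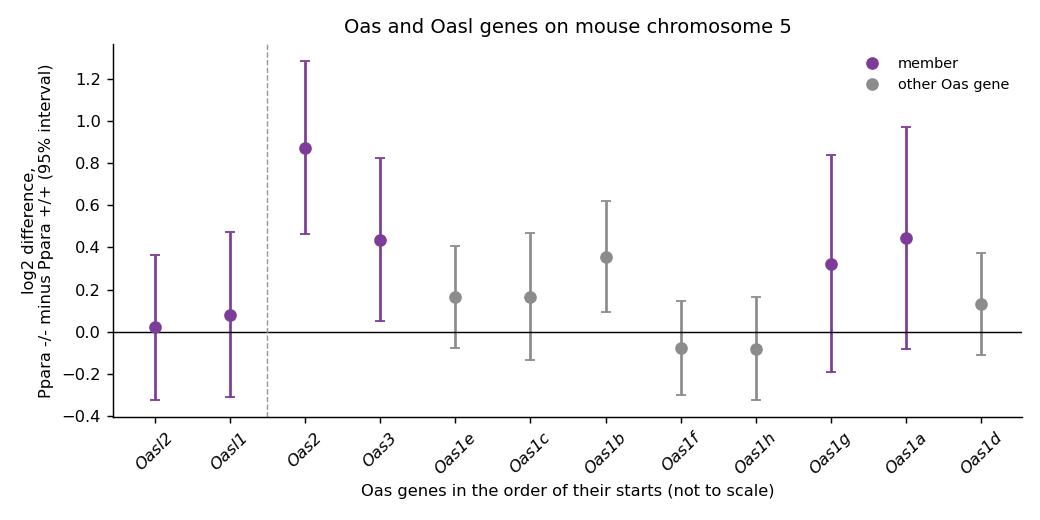
Log2 difference in signal (Ppara -/- minus Ppara +/+) with its limma 95% interval for the 12 Oas and Oasl genes, placed in the order of their starts on mouse chromosome 5 and not to scale, with members in purple and the dashed line between the Oasl pair and the Oas cluster. Oas2 and Oas3 at one end of the cluster, Oas1b within it and Oas1g and Oas1a near the other end have the larger differences, and Oas1f and Oas1h between them lie slightly below 0. The mean signals of Oas1d, Oas1e, Oas1f, Oas1h and Oasl2 were near or under the negative-control medians.

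Some members carry a match to the ISRE in their promoter, and stretches of 60 bases with a match are shown to set Oas genes beside classical interferon-stimulated genes. They are from RefSeq for mouse assembly GRCm38.p6, read 5′ to 3′ on the strand of the gene and end before its annotated start, and capitals mark the motif GAAANNGAAA or its reverse complement TTTCNNTTTC, overlapping matches joined.
Oas1a, chr5:120907528-120907587, minus strand: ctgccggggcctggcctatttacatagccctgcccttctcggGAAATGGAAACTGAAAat
Oas1g, chr5:120887614-120887673, minus strand: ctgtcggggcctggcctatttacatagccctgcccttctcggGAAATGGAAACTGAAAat
Oas3, chr5:120777700-120777759, minus strand: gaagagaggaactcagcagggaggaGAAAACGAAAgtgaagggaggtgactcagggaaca
Isg15, chr4:156200856-156200915, minus strand: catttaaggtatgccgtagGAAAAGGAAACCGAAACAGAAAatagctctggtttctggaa
Ifit1, chr19:34640769-34640828, plus strand: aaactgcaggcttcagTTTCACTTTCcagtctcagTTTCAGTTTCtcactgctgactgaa
Ifit3, chr19:34583365-34583424, plus strand: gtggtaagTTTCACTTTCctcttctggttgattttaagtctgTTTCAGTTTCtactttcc

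The Oas1a and Oas1g stretches were identical at 59 of 60 bases, with the same pair of overlapping motifs starting 20 and 18 bases before the annotated starts. Over 248 upstream bases aligned on the first match, 158 were identical (63.7%). Isg15 held 3 overlapping motifs and Ifit1 and Ifit3 held 2 separate ones each. In windows of 300 bases, 250 before and 50 after the start, 13 of the 32 measured members found in the promoter table had a match on either strand (40.6%), against 3.99% of all 27025 genes in it. The 13 had a median log2 difference of 0.18 with 10 positive, and the 19 members without a match had a median of 0.02 with 12 positive. All 702 tested genes with a match had a median of 0.03, with 61.3% positive, against 58.1% of all genes. Past the threshold were 3 of the 702, where 36 of all 30740 genes were (0.117%). Before adjustment, limma gave 8.83% of the 702 a p below 0.05, and 5.74% of all genes. The motif was present in Isg15, Ifit1 and Ifit3, whose differences were 0.18, -0.04 and -0.06, as well as in Oas1a, Oas1g and Oas3. Oasl1 and Oasl2 had a window without a match. Oas2 was among the 11 measured members without a window, so its promoter was not searched. A match is a run of letters in this window and not a measured binding site.

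The receptor chains and their signal transducer did not pass. Against the 95th percentile of the negative controls, Ifnar2 lay above on all 6 arrays, Ifnar1 on 5 and Stat2 on 2. Ifnar1, the low-affinity chain of the receptor, had 8.39, 8.17 and 8.43 in Ppara -/- cells, against 8.65, 8.11 and 8.42 in Ppara +/+ cells (log2 difference -0.06, 95% interval -0.41 to 0.28). For Ifnar2, the chain that binds interferon first, the values were 9.11, 8.96 and 9.25 in Ppara -/- cells, against 9.49, 9.19 and 9.24 in Ppara +/+ cells (log2 difference -0.20, 95% interval -0.48 to 0.08). The groups overlapped in both chains. Stat2, the transcription factor of the complex that is specific to this pathway, averaged 8.30 ± 0.17 in Ppara -/- cells and 8.04 ± 0.21 in Ppara +/+ cells (SD, n = 3 each; log2 difference 0.26, limma adjusted p = 0.994).

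Among the sensors of nucleic acid, Ddx58 stood out. It encodes RIG-I, a helicase that detects viral RNA with a triphosphate end. Its signals were 6.59, 6.99 and 6.25 in Ppara -/- cells, against 6.11, 6.01 and 6.13 in Ppara +/+ cells. The groups did not overlap, and the Ppara -/- arrays were spread more widely (SD 0.37) than the Ppara +/+ arrays (SD 0.06). The log2 difference was 0.53 (95% interval 0.13 to 0.92; limma adjusted p = 0.629), and it was 0.34 without Ppara -/- replicate 2, the highest array, and 0.71 without Ppara -/- replicate 3.

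The other sensors and adaptors went both ways by less. The related helicases Ifih1, which encodes the long-RNA sensor MDA5, and Dhx58, which encodes LGP2, had differences of 0.24 and 0.14. Sting1, the adaptor of DNA sensing, had 8.80, 8.44 and 8.17 in Ppara -/- cells, against 8.28, 8.10 and 8.35 in Ppara +/+ cells (log2 difference 0.23, 95% interval -0.14 to 0.60). Its partner Cgas, the enzyme that detects DNA in the cytosol, had a difference of -0.16. Mavs, the mitochondrial adaptor of RIG-I and MDA5, had 7.07, 6.82 and 7.04 in Ppara -/- cells, against 7.22, 6.96 and 7.40 in Ppara +/+ cells (log2 difference -0.22, 95% interval -0.53 to 0.10). Zbp1, a sensor of left-handed nucleic acid that can trigger cell death, had a difference of 0.09. In each of these genes the groups overlapped.

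The Ifit genes, among the most strongly induced by interferon, encode proteins that bind foreign RNA and block its translation. Ifit1 had 4.72, 4.67 and 4.55 in Ppara -/- cells, against 4.47, 4.59 and 5.01 in Ppara +/+ cells, and Ifit2 had 5.57, 5.85 and 5.46 in Ppara -/- cells, against 5.82, 5.57 and 5.52 in Ppara +/+ cells. With Ifit3, the differences were -0.04, -0.01 and -0.06, and each interval lay within -0.43 and 0.31. The Ifit1 and Ifit3 signals were near the negative-control medians in both genotypes.

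Mx1 and Mx2 encode dynamin-like GTPases that block virus replication. Mx1 had the lowest difference of the set, with 5.54, 4.91 and 5.51 in Ppara -/- cells, against 5.57, 5.47 and 5.75 in Ppara +/+ cells (log2 difference -0.28, 95% interval -0.68 to 0.13). Ppara -/- replicate 2 stood below the other 5 arrays by at least 0.56, and without it the difference was -0.07. Mx2 had its lowest value on the same array (4.86, against 5.36 to 5.60 on the others).

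Of the membrane effectors, Ifitm2, which hinders viral fusion, had the highest signal of the set, with 10.52, 10.25 and 10.16 in Ppara -/- cells, against 10.53, 10.09 and 10.18 in Ppara +/+ cells (log2 difference 0.04, 95% interval -0.30 to 0.38). The groups overlapped fully. Ifitm1 of the same family had a difference of 0.18. Rsad2, which encodes viperin and makes a chain-terminating nucleotide, and its neighbour Cmpk2, a nucleotide kinase, had 0.09 each, and Cmpk2 gave 7.37, 7.53 and 7.09 in Ppara -/- cells, against 7.32, 7.10 and 7.29 in Ppara +/+ cells.

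ISG15 is a ubiquitin-like protein that is attached to other proteins during the response. Isg15 itself lay under the negative-control median on all 6 arrays, with means of 4.10 ± 0.14 in Ppara -/- cells and 3.92 ± 0.08 in Ppara +/+ cells (SD, n = 3 each), so its RNA cannot be told from background here. Herc6, the mouse ligase for ISG15, had 6.18, 6.56 and 6.03 in Ppara -/- cells, against 6.27, 5.67 and 5.72 in Ppara +/+ cells (log2 difference 0.37, 95% interval -0.07 to 0.81). Only Ppara +/+ replicate 1 reached the Ppara -/- range. Usp18, which removes ISG15 and damps the receptor, had a difference of -0.04. Trim25, a ubiquitin ligase that acts on RIG-I, had 7.16, 7.08 and 7.40 in Ppara -/- cells, against 7.48, 7.14 and 7.57 in Ppara +/+ cells (log2 difference -0.18, 95% interval -0.51 to 0.14).

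PARP9 and DTX3L form a complex that modifies histones and host proteins, and PARP12 and PARP14 are related ADP-ribosyltransferases. Dtx3l had 8.06, 8.05 and 7.59 in Ppara -/- cells, against 7.87, 7.63 and 7.63 in Ppara +/+ cells, and Parp9 had 6.74, 6.66 and 6.52 in Ppara -/- cells, against 6.78, 6.35 and 6.45 in Ppara +/+ cells. The groups overlapped, and the 4 differences lay between -0.09 in Parp14 and 0.19 in Dtx3l.

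Among enzymes that act on RNA, Isg20, an exonuclease, had 7.72, 7.74 and 7.41 in Ppara -/- cells, against 7.23, 7.44 and 7.42 in Ppara +/+ cells. Ppara -/- replicate 3 lay within the Ppara +/+ range, and the log2 difference was 0.26 (95% interval -0.03 to 0.55; limma adjusted p = 0.937). Adar, which edits adenosine to inosine in double-stranded RNA, had 7.99, 7.96 and 7.89 in Ppara -/- cells, against 7.91, 7.72 and 7.88 in Ppara +/+ cells, a difference of 0.11. Eif2ak2, which encodes the translation-blocking kinase PKR, had a difference of 0.00 (95% interval -0.51 to 0.52), and its groups overlapped almost fully, at 6.90 to 7.52 in Ppara -/- cells and 6.94 to 7.70 in Ppara +/+ cells.

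Of the remaining induced genes, Ifi27, a small mitochondrial protein, had 6.93, 6.62 and 6.43 in Ppara -/- cells, against 6.46, 6.24 and 6.13 in Ppara +/+ cells. The groups overlapped by 0.03, and the log2 difference was 0.38 (95% interval 0.04 to 0.73; limma adjusted p = 0.8). Without Ppara -/- replicate 1 it was 0.25, with an unadjusted limma p of 0.136, and the unadjusted p was under 0.05 in 10 of 15 other fits. Lgals3bp, a secreted glycoprotein that binds galectins, had 8.21, 7.63 and 7.39 in Ppara -/- cells, against 7.16, 7.10 and 7.69 in Ppara +/+ cells (log2 difference 0.43, 95% interval -0.10 to 0.95). Sp100, a component of PML nuclear bodies, had 9.24, 9.68 and 9.05 in Ppara -/- cells, against 9.49, 8.85 and 8.68 in Ppara +/+ cells (log2 difference 0.32, 95% interval -0.21 to 0.84). Trim30a, a mouse TRIM protein, had 7.18, 6.88 and 6.95 in Ppara -/- cells, against 7.55, 6.87 and 7.25 in Ppara +/+ cells (log2 difference -0.22, 95% interval -0.62 to 0.18). In Lgals3bp, Sp100 and Trim30a the groups overlapped. Rtp4, singled out because its groups did not overlap, averaged 4.32 ± 0.24 in Ppara -/- cells and 4.01 ± 0.12 in Ppara +/+ cells (SD, n = 3 each), and all its values lay under the negative-control medians. Ifi35 and the cell death factor Xaf1 had differences of 0.00 and -0.04.

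Most members, like most of all genes, gave a signal within the range of the negative controls. In 34 of the 43 members every array lay under the 95th percentile of its own negative controls, 4 members (Ifnar2, Ifitm2, Sting1 and Sp100) lay above it on every array, and 5 did on some arrays. Oas2 exceeded it on 3 arrays. On single arrays 11.3% to 14.2% of all genes lay above it. By mean signal 6 of the 43 members and 3895 of the 30740 genes lay above 8.09, the mean of those percentiles. Isg15 and Rtp4 were under the negative-control median on all 6 arrays, and 8 members were under it on at least 1. Isg15 values fell between the 25.0 and 41.0 percentiles of the negative controls, Ifit3 between 31.8 and 51.3, Rsad2 between 39.0 and 53.3 and Oas2 between 89.4 and 97.2. Probe sets differ in how strongly they bind, so these ranks describe array signals and not the order of RNA levels between genes.

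**Figure D4:**
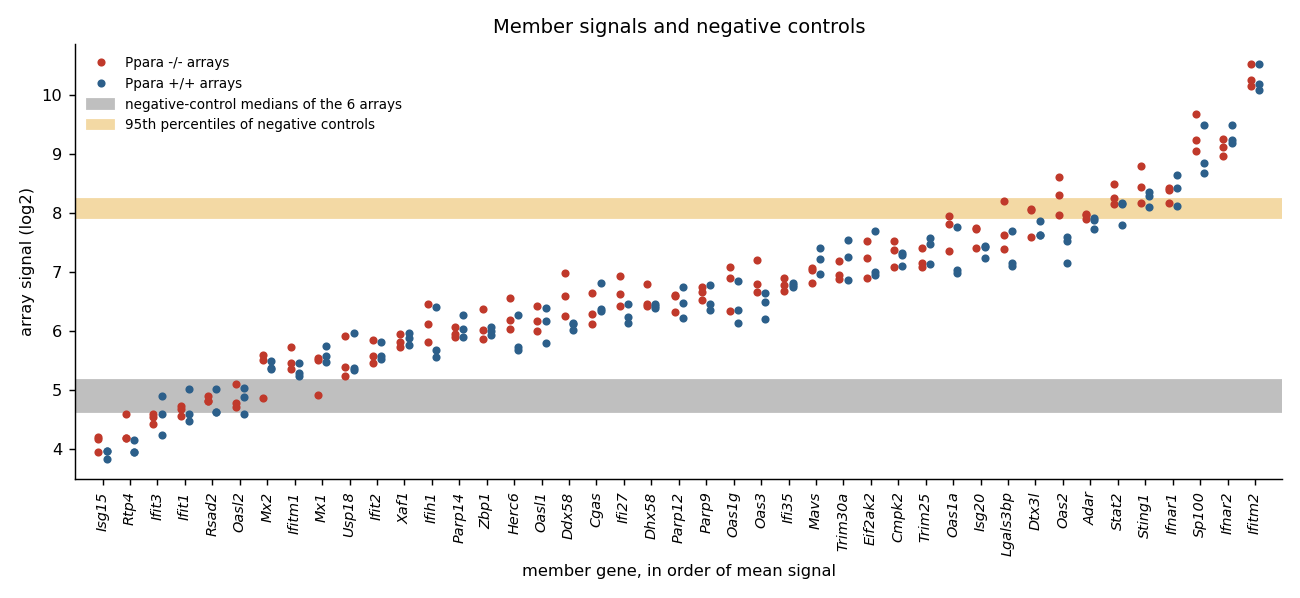
Log2 array signal of the 43 members, in order of mean signal, on the Ppara -/- arrays (red) and Ppara +/+ arrays (blue), with the range of the negative-control medians in grey (4.63 to 5.16) and of their 95th percentiles in tan (7.91 to 8.23). Isg15, Rtp4, Ifit3, Ifit1, Rsad2 and Oasl2 sit in or under the grey band in both genotypes, and all arrays of Sp100, Ifnar2 and Ifitm2, at the right end, lie above the tan band.

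The members varied between arrays of one genotype, with a median SD within genotypes of 0.21, against 0.15 over all genes. Ppara -/- replicate 1 was the highest Ppara -/- array in 28 members (65.1%, against 39.2% of all genes), including all 6 Oas genes. Ppara +/+ replicate 1 was the highest Ppara +/+ array in 22 (51.2%, against 28.7%), and Ppara +/+ replicate 2 in only 3 (6.98%, against 37.3%). In 7 members, Ifih1, Cgas, Ifit2, Cmpk2, Herc6, Eif2ak2 and Sp100, the highest array was Ppara -/- replicate 2 in one genotype and Ppara +/+ replicate 1 in the other, the arrays with the highest negative-control medians. Their share was 16.3%, and over all genes it was also 16.3%. Without Ppara -/- replicate 1 the median difference of the Oas family was 0.22, and that of all 43 members was 0.02, against 0.38 and 0.09 with all arrays. With each of the 6 arrays left out in turn the Oas median ran from 0.22 to 0.51.

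**Figure D5:**
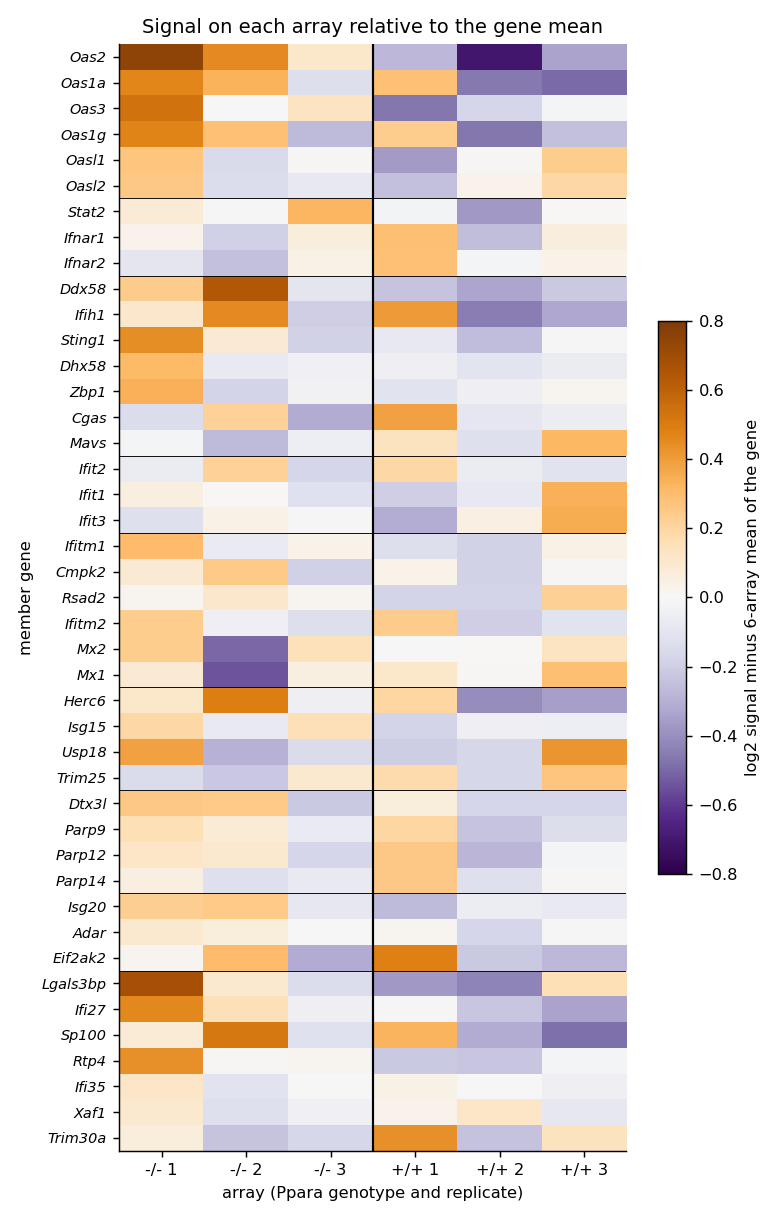
Log2 signal of each member on each array minus the mean of that gene over the 6 arrays (colour), with Ppara -/- replicates 1 to 3 left of the vertical line, Ppara +/+ replicates 1 to 3 right of it, and horizontal lines between role groups. Ppara -/- replicate 1 is orange in all 6 Oas genes and Ppara +/+ replicate 2 is purple or near white in most members, while Ddx58, Ifih1, Herc6 and Sp100 are highest on Ppara -/- replicate 2.

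Genes of the pathway outside the set were counted by list. Of 82 measured genes in 4 lists 1 passed over all genes, and 16 stood at an unadjusted p under 0.05 in limma, 6 higher and 10 lower (19.5%, against 5.74% of all genes). Among 16 interferon genes none passed, none had a mean above 8.09, and the median difference was 0.02. Ifna11 had the smallest p, with a difference of 0.26 at means of 4.53 in Ppara -/- cells and 4.27 in Ppara +/+ cells.

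Of 15 genes of signal transduction 0 passed, and 2 (13.3%), both transcription factors of myeloid cells, were lower at an unadjusted p under 0.05. Irf5 averaged 6.95 ± 0.46 in Ppara -/- cells and 7.86 ± 0.22 in Ppara +/+ cells (SD, n = 3 each; limma adjusted p = 0.307). Irf8 averaged 8.08 ± 0.83 in Ppara -/- cells and 8.88 ± 0.04 in Ppara +/+ cells (adjusted p = 0.861), with the lowest value, 7.13, on Ppara -/- replicate 2. Irf1 had a difference of 0.44 (adjusted p = 0.902).

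The list of genes around the induction of interferon held the 1 pathway gene that passed. Ticam2, which links Toll-like receptor 4 to interferon production, had 4.82, 4.49 and 4.81 in Ppara -/- cells, against 6.57, 5.85 and 6.22 in Ppara +/+ cells (log2 difference -1.51; limma adjusted p = 0.0324). No Ticam2 array lay above the 95th percentile of the negative controls, and its Ppara -/- values lay near the negative-control medians. Of the 17 genes of this list 6 stood at an unadjusted p under 0.05, 1 higher and 5 lower (35.3%, against 5.74% of all genes). The DNA-binding p200 protein Ifi204 had a difference of -1.41 and the nucleotide hydrolase Samhd1 one of -0.55 (adjusted p = 0.115 and 0.274).

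Among 34 other interferon-induced effectors none passed, and 7 (20.6%) stood at an unadjusted p under 0.05, 4 higher and 3 lower, in a list with a median of 0.10. Uba7, the enzyme that activates ISG15, had 8.54, 8.23 and 8.63 in Ppara -/- cells, against 7.88, 7.92 and 8.06 in Ppara +/+ cells (log2 difference 0.51; limma adjusted p = 0.326). Ifitm6 and Ifitm3 had differences of -0.68 and -0.55 (adjusted p = 0.159 and 0.484), against 0.04 in Ifitm2 and 0.18 in Ifitm1 of the same family.

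Cell markers also differed between the genotypes. Of the 13 markers of leukemic and myeloid cells 4 stood at an unadjusted p under 0.05 in limma (30.8%, against 5.74% of all genes). Kit, Hoxa10 and Csf3r were higher in Ppara -/- cells, with log2 differences of 0.54, 0.35 and 0.37. Cd34 was lower, with a difference of -0.87, and none of the 4 passed. Of 11 measured markers of monocytes and macrophages 6 stood at an unadjusted p under 0.05 (54.5%, against 5.74% of all genes). All 6 were lower in Ppara -/- cells, and Vcam1 passed (limma adjusted p = 0.0374). The summed linear signal of the 11 was 1782 to 2686 on the Ppara -/- arrays and 3452 to 5103 on the Ppara +/+ arrays. Cd68, Fn1, Csf1r, Ctss, Cd14 and Adgre1 had means above 8.09, and all of these but Cd14 were among the 6. The macrophage genes C1qa, C1qb, C1qc and Mrc1, and Vcam1, had no array above the 95th percentile of the negative controls. Of 8 markers of plasmacytoid dendritic cells, the main interferon-producing cells, 0 stood at an unadjusted p under 0.05 in limma. Tcf4 lay above the 95th percentile of the negative controls on 6 arrays (8.75 in Ppara -/- cells and 8.53 in Ppara +/+ cells) and Bst2 on 4 (7.97 in Ppara -/- cells and 8.43 in Ppara +/+ cells). The other 6 did on none, among them Siglech and Ccr9 (4.64 and 3.98 in Ppara -/- cells, against 4.67 and 4.13 in Ppara +/+ cells). Their summed linear signal was 808 to 1007 on the Ppara -/- arrays and 948 to 990.2 on the Ppara +/+ arrays. The part of such cells in the interferon gene values was not tested, and fewer cells of a kind cannot be told apart from less RNA in each cell.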

How the data were processed

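RNA of 6 samples was measured on Affymetrix mouse arrays, 3 Ppara -/- and 3 Ppara +/+, grouped by their titles. The authors deposited 1 log2 signal for each probe set on each array. RMA and limma are listed, without versions, per the submitters' processing notes. RMA's quantile step would remove a shift of most genes. Row identifiers are not in the form used by the Affymetrix model given in the design text, which leaves the model uncertain, and the build is not given in the sources used here. Of 72688 rows 31213 were paired with 1 gene by a platform annotation table, with symbols updated through RefSeq (GRCm38.p6), 1537 with several and 33206 with none, and 6732 were controls. No detection calls were used and no filter on dim genes was set. The members and lists were chosen with earlier results of these data known.

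A limma model (version 3.58.1, R 4.3.3; lmFit, eBayes, two-sided, no covariate) was fitted to all 30740 genes. P-values were adjusted over all of them by Benjamini-Hochberg, and a gene passed when its adjusted p was under 0.05. The SE and the 95% interval are the moderated ones. Single values were also compared by an exact permutation test. Alternatives were another prior, 2 normalizations, 2 filters, the mean of all rows, weighted arrays, a block for the replicate number, the negative-control median as a covariate, and arrays left out. Every member is reported. Values on every array are given for Oas genes, members at an unadjusted p under 0.05, the 2 members of highest signal in each role group and the 3 largest and 3 smallest differences. Other pathway genes are named where past the threshold, or up to 3 a list by p. Oas1b, Oas1c, Oas1d, Oas1e, Oas1f, Oas1h, the array values of Mx2 and Eif2ak2, and the markers named were added after their values were seen. Simulated data with known changes were used to test the script. Python 3.11.15, pandas 2.3.3 and matplotlib 3.10.9 made the tables and plots.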

Additional observations from a re-analysis of the deposited data

How the results depend on the processing

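The count of 0 members past the threshold held in 15 of 16 other fits, and with array weights it was 1, Oas2 (log2 difference 1.05; limma adjusted p = 0.0373). Over all genes that fit called 277, against 36. The other counts over all genes were 69 with a trended and robust prior, 13 with arrays centred on their median, 22 with quantile normalization of the named genes, 1 among genes above the 95th percentile of the negative controls and 0 in limma when the pair of arrays with the brightest negative controls, Ppara -/- replicate 2 and Ppara +/+ replicate 1, was left out (2947 at an unadjusted p under 0.05). The range with single arrays left out was 6 to 36. At an adjusted p under 0.1 the counts were 0 members and 74 genes, and at an unadjusted p under 0.05 they were 4 members and 1766 genes. With the replicate block limma called 0 members and 12 genes. Deviations of same-numbered arrays from their group means correlated at -0.33, -0.47 and 0.11. Over all pairs of arrays across genotypes the largest value was 0.50, for Ppara -/- replicate 2 and Ppara +/+ replicate 1. These are the arrays with the brightest negative controls. With few arrays per genotype, whose deviations sum to 0, the correlations cannot show whether the replicate numbers pair the samples. No other call of a member changed.

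At an unadjusted p under 0.05 stood 16 members with array weights (37.2%, against 13% of genes; 15 higher), 9 without that pair of arrays (20.9%, against 9.59%; all higher) and 8 with the negative-control median as a covariate (18.6%, against 8.53%; all higher). The count was 2 without Ppara -/- replicate 1 and with arrays centred on their median, 11 when Ppara -/- replicate 3 and 8 when Ppara +/+ replicate 1 was left out. The Oas median was above that of the other members in all 15 fits that held Oas genes and ran from 0.22 to 0.51 with 1 array left out, while that of the other members ran from 0.02 to 0.14. Among genes above the 95th percentile of the negative controls no Oas gene was left. Of the 43 members 25 kept the sign of their difference in every fit that held them, and 23 to 34 were positive. The causes of these shifts were not tested.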

Other observations

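Phf11d, a member without a row of its own, shares 2 rows with other genes. The row paired with Phf11d and Phf11c had signals of 4.72, 4.74 and 4.6 in Ppara -/- cells, against 4.87, 4.78 and 4.93 in Ppara +/+ cells. Its groups did not overlap, with the lower values in Ppara -/- cells, and it was outside the test. All its values lay near the negative-control medians, and over all named genes the groups did not overlap in 8.74%. The row shared with Setdb2 averaged 5.98 ± 0.17 in Ppara -/- cells and 6.0 ± 0.25 in Ppara +/+ cells (SD, n = 3 each).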
